A study of Mus musculus with 6 samples.

Results

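The comparison described here set the RNA library labelled neonatal cardiomyocytes, prepared from neonatal mouse heart, against the library of undifferentiated induced pluripotent stem (iPS) cells, which are cells reprogrammed to an embryonic state. These are 2 of the 6 libraries of the study, each the only library of its group and each measured on 1 Affymetrix Mouse Gene 2.0 ST array. The labels give strain DBA/2J and female gender for all 6 libraries, state no age for the neonatal heart, and describe iPS cell maintenance on feeder cells in serum and leukaemia inhibitory factor. The other 4 libraries, used below only for context, were adult heart cardiomyocytes and iPS cultures at day 7 that had spent 5 days as embryoid bodies before plating with 1% DMSO, 100 ng/ml NRG-1 (neuregulin 1) or both. Values were log2 expression values from robust multi-array averaging (RMA), a scaling that makes arrays comparable probe set by probe set, and each gene was given the average of all probe sets naming it and no other gene. Of 22180 genes measured, 13582 had the higher of their pair of values at or above the median of the whole table (5.20) and entered the comparison. A gene that is dim in one library enters only through the other, so counts over the members of a list that passed are descriptions. A difference is always neonatal minus iPS on the log2 scale, so 1 unit is 2-fold, and with 1 library a side it has no replicate check and no test. The library medians were 5.15 (neonatal) and 5.13 (iPS). For 492 genes with a pair of probe sets, the log2 difference had an SD of 0.589 between the probe sets of a gene, which is the measure of technical error these files allow.

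The labels were set against marker genes before any other result. Cardiomyocyte markers were mostly near the iPS level: of 15 measured, 4 (Tnnt2, Actc1, Pln and Nppa) were at least 2-fold higher in the neonatal library, with a median difference of 0.61. Tnnt2 was 9.76 in the neonatal and 6.35 in the iPS library, Pln 7.13 and 4.32, and Actc1 8.03 and 6.58. Alpha-actinin 2 (Actn2), which anchors the thin filaments at the Z-disc, had the most negative difference of these markers, with 5.68 and 6.04. The ryanodine receptor Ryr2, the calcium release channel of heart muscle, stood at 5.31 and 5.21. Neither Actn2 nor Ryr2 was thus raised by 2-fold in the library labelled as heart muscle. Fibroblast markers gave another picture, since 10 of 10 were at least 2-fold higher, with a median difference of 3.77. Their linear values summed to 19469 in the neonatal and 1207 in the iPS library, while the cardiomyocyte markers summed to 3277 and 815. Smooth muscle and mural markers summed to 17326 and 3025, epicardial markers to 1528 and 505, and pluripotent markers to 199 and 14044. The smooth muscle and mural sums lean on their brightest member, Acta2 (13.61 against 11.08). Of these 8 markers 6 were at least 2-fold higher and 1 was lower, Notch3 (6.30 against 7.70). Endothelial markers summed to 630 and 758 and macrophage markers to 514 and 530, although their median differences were 0.14 and 0.39. Each of those iPS sums leans on its brightest member, Pecam1 (6.38 against 8.58) and Cd68 (7.25 against 8.14). Pecam1 is also in the list of pluripotent surface genes. In the neonatal library 7 of 10 endothelial markers were at or above the table median, against 6 in the iPS library. For macrophage markers these counts were 6 of 10 and 3. Among the markers below the table median in the neonatal library were Ptprc (3.89), the pan-leukocyte surface protein CD45, and Erg (4.72), a transcription factor of endothelial cells. Each sum is set only against the same markers in the other library, since levels of different probe sets cannot be compared. Most cardiomyocyte markers were thus not 2-fold above their level in pluripotent cells, which goes against the label. The Y-linked genes Uty (7.14 against 4.06) and Kdm5d (6.17 against 3.08) were higher together with Xist (8.78 against 5.97), the RNA of the inactive X chromosome, and the Y-linked values go against the label of female. It is called the neonatal library below, and every difference rests on it, so no result can be given without it. In bulk RNA, fewer cells of a type and less RNA per cell cannot be told apart, and the part that feeder cells took in the iPS library, where Col1a1 was 8.61 and Acta2 11.08, was not tested.

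**Figure D1:**
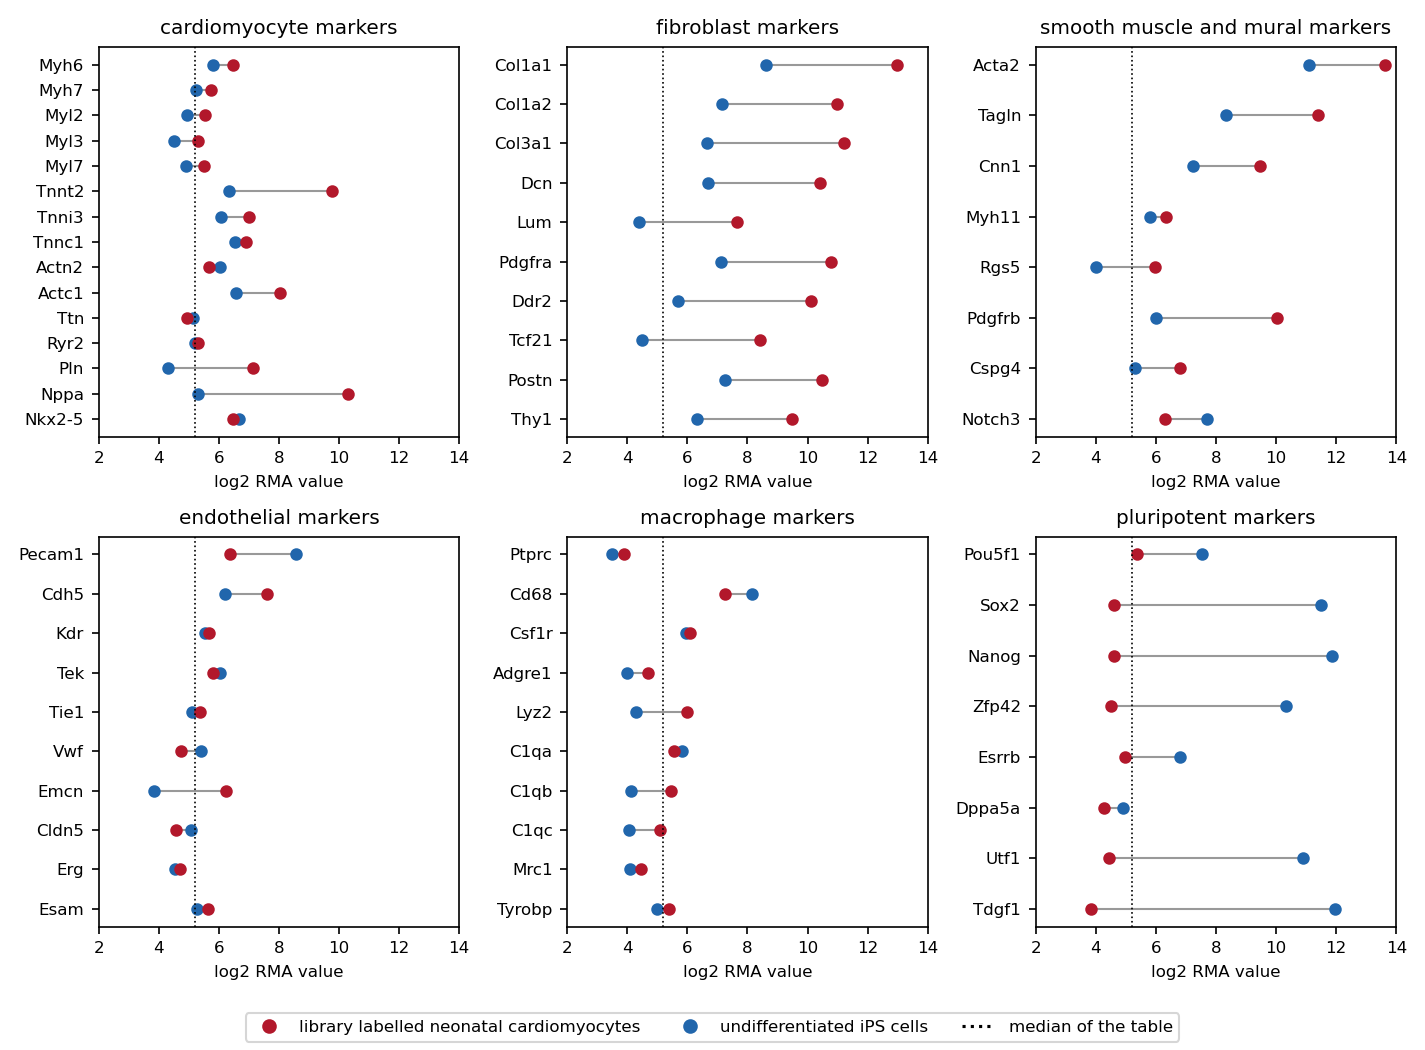
Level of each cell type marker (log2 RMA value, horizontal) in the library labelled neonatal cardiomyocytes (red) and in undifferentiated iPS cells (blue), 1 library each, with the table median (5.20) as a dotted line. All 10 fibroblast markers lie further to the right in the neonatal library, whereas 4 of 15 cardiomyocyte markers do so by 2-fold or more.

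Pluripotent cells hold a self-sustaining network of transcription factors, divide fast with a short gap before DNA replication, carry epithelial junctions, and keep germline and early embryonic genes accessible. The heart is built of contractile cardiomyocytes together with fibroblasts that lay down collagen, smooth muscle and pericytes around vessels, endothelium, macrophages and an outer epicardium. Cardiomyocytes contract through sarcomeres and respond to natriuretic peptides and nitric oxide through cyclic GMP, a messenger that is also central to vascular smooth muscle and mesenchymal cells.

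Of the 13582 genes, 1759 (13.0%) were at least 2-fold higher in the neonatal library and 1524 (11.2%) at least 2-fold lower. At 4-fold the counts were 612 (4.51%) and 425 (3.13%), and at 32-fold they were 16 and 31. The middle of the distribution was narrow: 50.2% of the genes lay within 0.5 of 0, and the 5th and 95th percentiles were -1.55 and 1.90. Higher genes made up 53.6% of those at least 2-fold apart as deposited, and 73.2% after both libraries were shifted to the same median of 9 housekeeping genes, a shift that moved the median of all genes from -0.07 to 0.25. Calls were spread over expression levels, and the tenth of genes with the highest mean level (mean 10.1) still held 162 higher and 92 lower genes.

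**Figure D2:**
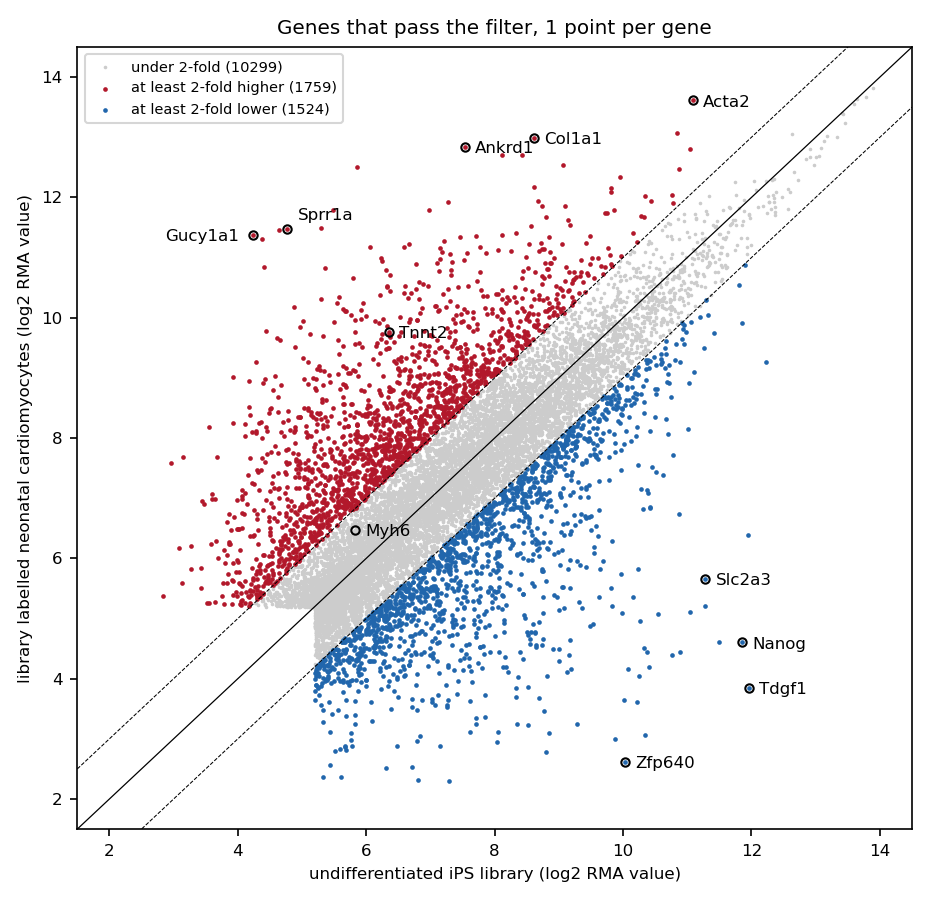
Each point is 1 gene that passed the filter, with its log2 RMA value in the iPS library (horizontal) and in the neonatal library (vertical). Red points are the 1759 genes at least 2-fold higher and blue points the 1524 genes at least 2-fold lower, the dashed lines mark 2-fold, and named genes such as Gucy1a1 and Tdgf1 are circled.

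Genes that hold the pluripotent state were lower nearly throughout. Of 24 core pluripotency transcription factors, all of which passed the filter, 22 were at least 2-fold and 18 at least 4-fold lower, beside 11.2% and 3.13% of all genes, and the list median was -2.78. Nr0b1, an orphan nuclear receptor of the network, was 3.61 in the neonatal and 10.21 in the iPS library. Utf1, a chromatin-bound factor of undifferentiated cells, was 4.45 and 10.88, and the zinc finger factor Sall1 was 4.04 and 8.82. The naive-state factors Tfcp2l1, Zscan10 and Prdm14 differed by -3.85, -3.79 and -3.71. Pou5f1, the central factor of the network, differed by less, with 5.36 against 7.55 (difference -2.19). The only core factor that was higher was Myc, a growth regulator shared by many dividing cells, at 9.48 in the neonatal and 7.91 in the iPS library (difference 1.57).

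Zfp42 (Rex1), a zinc finger marker of the naive state, was 4.50 in the neonatal and 10.33 in the iPS library, and it was at most 6.66 in the day 7 cultures and 5.28 in the adult library. Its promoter is printed because it was the only one among the core factors with windows that held the octamer ATTTGCAT, the letters that POU factors such as Pou5f1 recognise. Windows were the 250 bases before a RefSeq gene start on GRCm38.p6, read 5′ to 3′ on the strand of the gene and searched on both strands. The octamer was in 1 of 19 core factor genes with a window (3.57% of 28 windows) and in 1.60% of 32851 windows of all genes. Capitals mark the match, in the window at chr8:43307010-43307259 on the minus strand.
Zfp42: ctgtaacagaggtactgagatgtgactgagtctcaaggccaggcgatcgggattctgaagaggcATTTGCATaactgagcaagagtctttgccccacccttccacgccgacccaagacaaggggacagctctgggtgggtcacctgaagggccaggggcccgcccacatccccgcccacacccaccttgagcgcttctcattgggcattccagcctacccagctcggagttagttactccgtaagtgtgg

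Surface and secreted genes of pluripotent cells were also mostly lower: of 24 measured 21 passed, and 18 of those were at least 2-fold lower. L1td1, an RNA-binding protein of embryonic stem cells, was 5.36 against 10.15, and Fgf4, the growth factor that primes these cells to differentiate, was 5.51 against 9.82. Nodal and its antagonists Lefty1 and Lefty2, which act in one feedback loop, differed by -2.90, -2.90 and -3.49. Gdf3, a related ligand, differed by -4.70. Ligand and antagonists of the Nodal loop were thus lower together, and the only higher gene of the list was the keratin Krt18 (difference 2.19).

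Germline and oocyte genes were lower as a group: 25 were measured, 21 passed, and 20 were lower by at least 2-fold and 10 by at least 4-fold, with none higher. Dppa2 and Dppa4, partner proteins that open chromatin at early embryonic genes, were 4.39 against 10.76 and 4.16 against 9.19. Dazl, an RNA-binding protein of germ cells, was 3.11 against 8.05. Morc1 and Mael, which silence transposons in germ cells, differed by -5.01 and -4.49, and the meiotic cohesin subunit Smc1b by -3.63. Meiotic and transposon-silencing genes therefore stood among the lower genes although neither library is germline tissue. Stra8, the retinoic acid induced gate to meiosis, was 3.53 in the neonatal and 7.26 in the iPS library.

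Enzymes that write and erase DNA methylation were mostly lower. The de novo methyltransferases Dnmt3b (5.83 against 10.24) and Dnmt3a (7.30 against 9.18) and their cofactor Dnmt3l (5.00 against 8.47) were lower in the neonatal library, while the maintenance enzyme Dnmt1 differed by -0.79 and its partner Uhrf1 by -1.65. Among the TET enzymes, which oxidise methylated cytosine, Tet1 and Tet2 differed by -4.12 and -2.24 and Tet3 was higher by 1.41. In all, 6 of 9 were at least 2-fold lower and 1 was higher. Polycomb repressive complex 2, which places the repressive mark on histone H3 lysine 27, had 6 of 11 genes lower and none higher. Of its catalytic subunits Ezh2 differed by -0.66, below 2-fold, and Ezh1 by -1.39, and the core subunits Suz12 and Eed differed by -1.58 and -1.08. The accessory proteins Jarid2, Mtf2 and Epop differed by -3.56, -2.12 and -2.07, and Phf19 and Aebp2 by -0.73 and -0.45, below 2-fold. Of 26 passing chromatin remodelling genes, 4 were higher and 6 lower, with Hmga2, an architectural protein of fetal mesenchyme, higher by 2.25, the remodelling ATPase Smarca2 higher by 1.99 and Cbx7, a Polycomb reader of stem cells, differing by -2.67.

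Some of the largest negative differences lay in gene clusters that hold near-identical copies, whose probe sets may not tell the copies apart. Zscan4e, a member of the Zscan4 cluster that is switched on in rare stem cells and at the 2-cell stage, was 2.99 in the neonatal and 9.88 in the iPS library. Zfp640 and Zfp981, zinc finger genes of clusters on chromosomes 13 and 4, were 2.62 against 10.03 and 3.06 against 10.34. These genes were high in the iPS library alone: over the other 5 libraries Zfp640 reached at most 3.05 and Zfp981 at most 3.90. Rex2, from the same chromosome 4 cluster, was 2.79 against 8.80 and at most 3.77 elsewhere. The Pramel family of germ cell and early embryo genes had 8 of 10 passing members at least 2-fold lower, with a family median of -1.53, led by Pramel19 (-4.76) and Pramel30 (-3.24). Long non-coding RNAs of the Platr series, named for their link to pluripotency, had 9 of 12 lower and the lowest median of 320 symbol families (-1.81), with Platr10 (-4.10) and Platr14 (-3.38) at the front.

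Other genes with large negative differences had varied functions. The glucose transporter Slc2a3 was 5.65 in the neonatal and 11.28 in the iPS library, and 10.01, 9.47 and 10.14 in the cultures with DMSO, NRG-1 and both. Stmn2, a microtubule regulator known from neurons, was 5.22 against 11.28. Trh, the precursor of thyrotropin-releasing hormone, was 4.19 against 10.41 and at most 4.91 in the other libraries. Bex1 and Fam169a showed another pattern, since the day 7 cultures lay nearer the iPS than the neonatal library. Bex1 was 5.11 in the neonatal, 4.40 in the adult and 11.04 in the iPS library, against 10.38, 11.42 and 10.54 in the cultures. Fam169a was 4.45, 4.25 and 10.38 in the same order, against 8.71, 9.50 and 9.30. Chchd10, a mitochondrial protein, was 6.39 against 11.94, and Pipox, a peroxisomal oxidase, was 5.10 against 9.98.

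**Figure D3:**
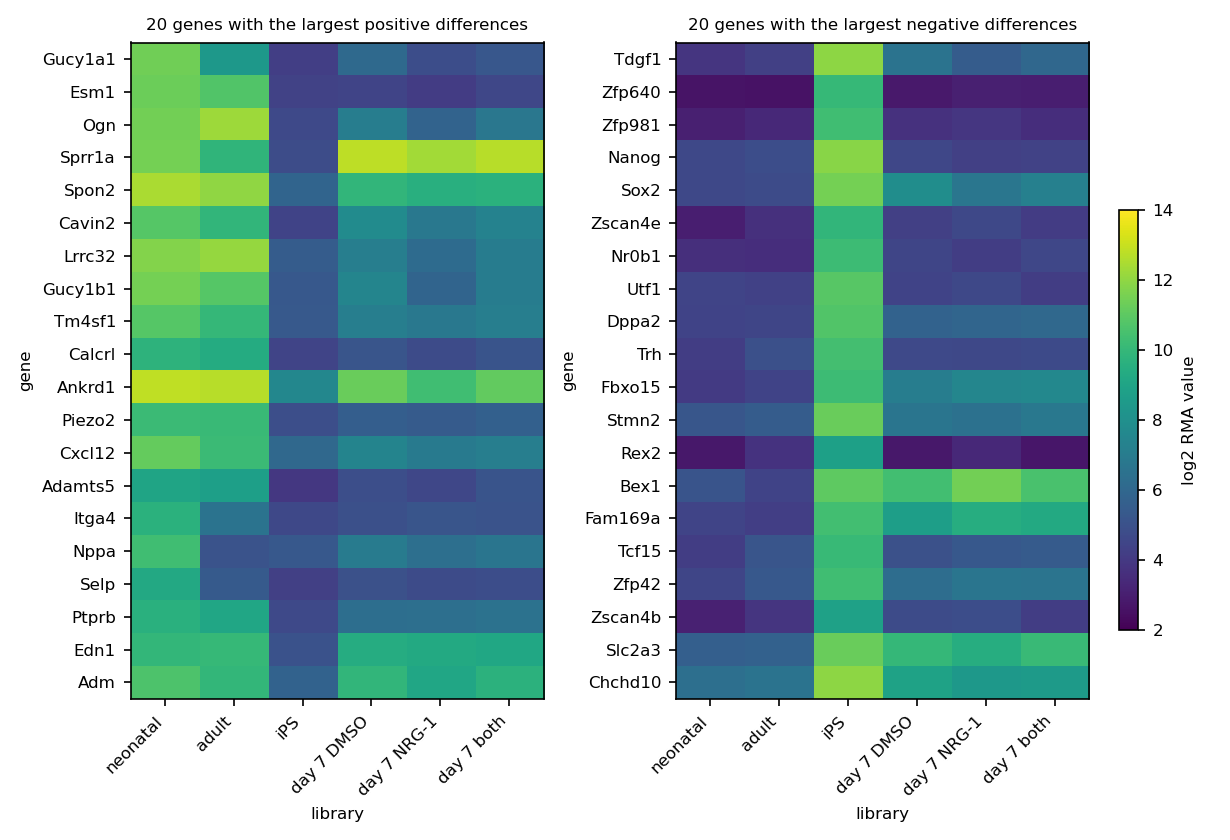
Colour gives the log2 RMA value of the 20 genes with the largest positive (left) and negative (right) neonatal minus iPS differences in all 6 libraries, 1 column per library. Most genes on the right are bright in the iPS column alone, with Bex1, Fam169a and Slc2a3 also bright in the day 7 cultures, and many on the left are bright in both heart-derived columns, with Nppa and Selp bright in the neonatal column.

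Among the largest positive differences, Gucy1a1 and Gucy1b1, which together form the nitric oxide receptor soluble guanylate cyclase, were 11.38 against 4.23 and 11.48 against 5.30. Lrrc32, which tethers latent TGF-beta at the cell surface, was 11.78 in the neonatal, 5.48 in the iPS and 12.10 in the adult library. Cavin2, a coat protein of caveolae, was 10.84 against 4.42. For these 4 genes the iPS values lay near or below the table median, where the array may not resolve levels, so the size of each difference is approximate. Calcrl, the receptor for adrenomedullin and related peptides, was 9.77 against 4.44, and its ligand Adm was 10.67 against 5.79. Edn1, the vasoconstrictor endothelin 1, was 9.94 against 5.02 and lay between 9.16 and 9.43 in the day 7 cultures. Sprr1a, a cornified envelope protein also known from stressed heart muscle, was 11.48 against 4.77, with 12.80 in the DMSO culture.

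Some of the genes high in the neonatal library were not high in the library labelled adult cardiomyocytes. Markers go against that label as well: 8 of 15 cardiomyocyte markers were at or above the table median there, against 10 in the iPS library. Their median was 5.22 in the adult and 5.29 in the iPS library, while the fibroblast markers had medians of 11.4 and 6.68. Nppa, the atrial natriuretic peptide precursor, was 10.31 in the neonatal library against 5.06 in the adult and 5.29 in the iPS library. Selp, the adhesion protein P-selectin, was 9.26, 5.40 and 4.28 in that order. Itga4, an integrin chain that binds Vcam1, was 9.66, 6.56 and 4.60. Vcam1 itself was high in both heart libraries, at 10.99, 10.52 and 6.22. The neonatal and adult values are set beside the same iPS library, so their differences from it are not independent.

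Matrix genes were broadly higher. Of 11 fibrillar collagens, which form the tensile fibres of connective tissue, 6 were at least 2-fold higher and none lower (list median 1.61), beside 13.0% of all genes. The list median was 2.95 with the brightest probe set of each gene and 0.13 over the genes with 1 probe set. The heterotypic fibril chain Col5a2 was 9.97 against 6.26 and Col11a1, a nucleator of fibrils, was 8.83 against 5.20. Col2a1, the cartilage collagen, was not among the higher genes (5.86 against 6.37). The fibril-associated collagens Col12a1 (10.24 against 5.54) and Col14a1 (8.98 against 4.42) were higher by 4.70 and 4.56, and Col8a1, a short-chain collagen of vessel walls, by 4.21. Among the other collagens 10 of 25 were higher and 2 lower, the lower ones being Col18a1 (-1.99) and Col6a5 (-1.51). The basement membrane chains Col4a1 and Col4a2, made from one shared promoter region, were higher by 2.98 and 2.39.

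Enzymes that make collagen fit for secretion were higher as well, in 14 of 20 cases with none lower. P3h2, a prolyl 3-hydroxylase, was 9.42 against 6.22, and Serpinh1, the collagen chaperone HSP47, was 11.09 against 8.87. The procollagen proteinase Bmp1 and its enhancers Pcolce and Pcolce2 were higher by 2.06, 2.18 and 2.27. Elastic fibre and cross-linking genes had 15 of 22 higher and none lower (median 1.91). Lox and Loxl1, which cross-link collagen and elastin, were 11.28 against 7.21 and 10.33 against 6.64, and elastin (Eln) was 8.50 against 5.10. The chain of steps from collagen chain to cross-linked fibre thus held higher genes at each step. Small leucine-rich proteoglycans, which space collagen fibrils, had 7 of 10 passing members higher, including Bgn (12.17 against 8.62) and Aspn (higher by 2.34), while 6 of 16 members, such as Omd and Kera, were below the table median in both libraries.

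Adhesive glycoproteins of the matrix had 21 of 28 passing members higher and none lower. Thrombospondin 1 (Thbs1) was 12.71 against 8.42, fibronectin (Fn1) 12.81 against 11.04, and nidogen 1 (Nid1), a linker of basement membranes, 11.94 against 8.68. Matrix-cutting enzymes were mixed, with 15 of 29 higher and 3 lower. The membrane collagenase Mmp14 was 11.17 against 7.78 and Adamts5, which cuts versican and aggrecan, was 9.01 against 3.92, whereas Adam23, a neuronal adhesion protein without protease activity, was 5.50 against 9.18. The inhibitors Timp3, Timp2 and Timp1 were higher by 3.81, 3.60 and 2.15. Enzymes and their inhibitors were both among the higher genes. The epithelial protease inhibitors Spint2 and Spint1 differed the other way, by -3.24 and -1.41.

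Laminins and integrins, the sheet proteins of basement membranes and their receptors, differed chain by chain. Laminin chains alpha 4 (Lama4, 8.44 against 5.14) and alpha 2 (Lama2, 7.62 against 4.96), typical of mesenchyme and muscle, were higher. The embryonic and epithelial chains alpha 1 (Lama1, 5.09 against 8.76), alpha 3 (Lama3, difference -1.58) and alpha 5 (Lama5, difference -1.06) were lower. Of 19 integrin chains 9 were higher and 2 lower. The fibronectin receptor chain Itga5 was higher by 2.18 and the collagen receptor chain Itga1 by 1.97, while the laminin receptor chain Itga6 differed by -1.09.

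Cell-cell junction genes showed the exchange of cadherins that separates epithelial from mesenchymal cells. E-cadherin (Cdh1) was 5.40 in the neonatal and 8.44 in the iPS library, N-cadherin (Cdh2) 10.96 and 7.52, and the mesenchymal cadherin Cdh11 10.57 and 6.88. The protocadherins Pcdh9, Pcdh7 and Pcdh18 were higher by 4.01, 3.93 and 3.02. Epithelial genes had 16 of 34 passing members lower and 2 higher (Krt18 and Krt19). Spint2, the matriptase St14 and the epithelial transcription factors Elf3 and Grhl3 differed by -3.24, -3.04, -3.14 and -2.62. Other members were level, among them the keratins Krt8 (0.31) and Krt7 (0.52) and the desmosomal proteins Pkp2 (0.29) and Jup (0.11). Among claudins and other tight junction genes 4 of 15 were lower, led by Cldn6 (-2.56) and occludin (Ocln, -1.33), and 2 were higher, Cldn15 (1.88) and Cldn12 (1.49).

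**Figure D4:**
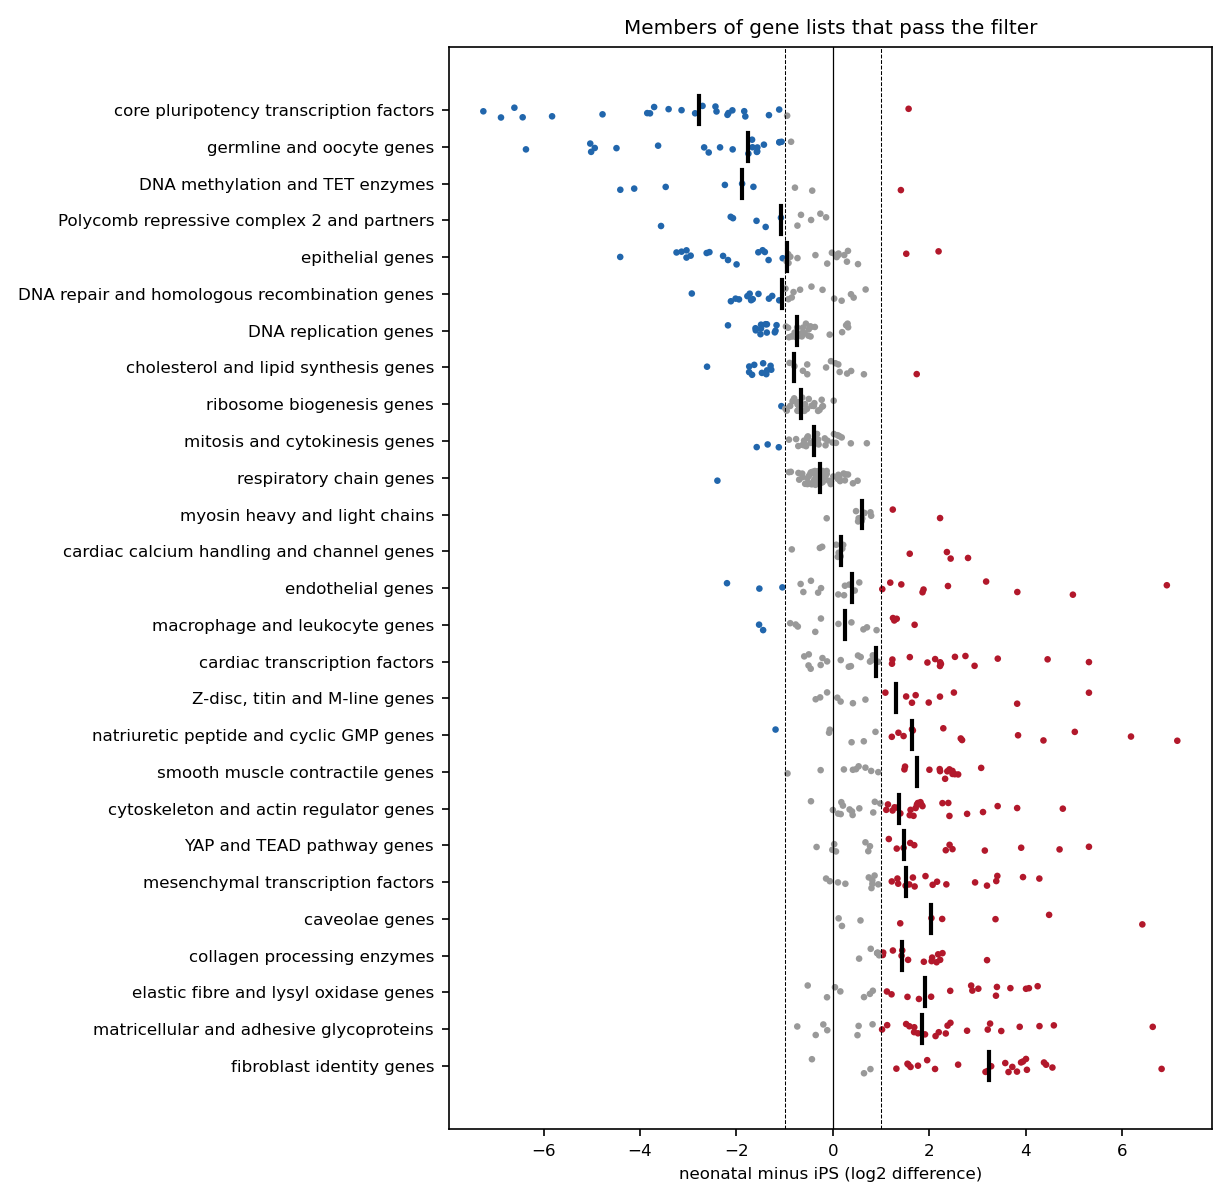
Each point is a list member that passed the filter, placed by its neonatal minus iPS log2 difference, with members at least 2-fold higher in red and at least 2-fold lower in blue. Black bars are list medians over those members, running from -2.78 for the core pluripotency factors to 3.25 for the fibroblast genes.

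Muscle genes differed by compartment. Among myosin chains 2 of 13 passing members were at least 2-fold higher, and they were the non-sarcomeric Myl9 (10.65 against 8.43) and Myh9 (11.04 against 9.80). The sarcomeric light chains Myl3, Myl4 and Myl7 were higher by 0.78, 0.60 and 0.59, all below 2-fold. Of 16 thin filament genes 5 were higher and 2 lower. The tropomyosins Tpm2 (8.68 against 6.35) and Tpm4 (10.91 against 8.78) were among the higher ones, and the skeletal muscle actin Acta1 (6.75 against 7.93) and troponin Tnnt1 (5.01 against 6.03) were the lower ones. Cardiac troponin I (Tnni3) was 7.01 against 6.08. The higher thin filament genes were thus, apart from Tnnt2 and Actc1, tropomyosins that non-muscle cells also make.

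Z-disc genes had 9 of 16 passing members higher and none lower. Ankrd1, a stretch-responsive ankyrin repeat protein of the Z-disc and nucleus, was 12.84 in the neonatal, 7.53 in the iPS and 12.73 in the adult library. Fhl2, a LIM protein of actin fibres, was 10.41 against 6.59, and Pdlim5, Pdlim7 and Pdlim3 were higher by 2.51, 1.64 and 1.52. The M-line genes Myom1 and Myom2 and the titin gene were below the table median in both libraries. The larger differences of this list thus came from genes that are also known outside the sarcomere. Calcium handling and channel genes passed the filter in 13 of 29 cases, of which 4 were higher: the junction protein Jph2 (8.22 against 5.85), Pln, the sodium-calcium exchanger Slc8a1 and the L-type channel Cacna1c (6.77 against 5.17). The muscle enzymes were near even, with Fabp4 (8.03 against 4.10), a lipid carrier of adipocytes and capillaries, higher and Cox7a1 (5.67 against 8.07), the muscle form of a respiratory subunit, lower. Myoglobin (Mb) was 6.18 against 5.24, below 2-fold.

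Cyclic GMP genes were mostly higher. Of 19 passing genes 13 were at least 2-fold and 8 at least 4-fold higher, and 1 was lower (list median 1.64). Beyond the guanylate cyclase subunits, the kinase Prkg1, which carries the cyclic GMP signal in smooth muscle, was 7.40 against 4.75. Among natriuretic peptide receptors, Npr3, which clears the peptides, was 9.70 against 5.33 and Npr2, the receptor for the C-type peptide, was 8.05 against 5.75. Npr1, the receptor for the atrial and B-type peptides, was the lower gene, with 4.80 against 5.99. The receptor genes of one family thus lay on both sides of 0. The phosphodiesterases Pde1a and Pde3a, which break cyclic nucleotides down, were higher by 3.84 and 2.68.

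Smooth muscle contractile genes all passed the filter, and 13 of 22 were higher with none lower (median 1.75). Tagln (SM22) was 11.41 in the neonatal and 8.33 in the iPS library, the smooth muscle gamma actin Actg2 8.63 and 6.03, and Acta2, smooth muscle alpha actin, 13.61 and 11.08. The definitive smooth muscle myosin Myh11 was 6.34 against 5.80, below 2-fold. Csrp2 was the member with the most negative difference (-0.94). Promoters of 17 of these genes were searched for the CArG box, the binding letters of serum response factor, and 2 held it, or 10.5% of 19 windows against 1.47% of all windows. Members of the list were picked as contractile genes, so this share describes the choice of members and was not tested. The 2 promoters are shown with the match in capitals: Myl9 at chr2:156775214-156775463 on the plus strand, and Cnn2, the non-muscle calponin (11.62 against 9.14), at chr10:79988350-79988599 on the plus strand.
Myl9: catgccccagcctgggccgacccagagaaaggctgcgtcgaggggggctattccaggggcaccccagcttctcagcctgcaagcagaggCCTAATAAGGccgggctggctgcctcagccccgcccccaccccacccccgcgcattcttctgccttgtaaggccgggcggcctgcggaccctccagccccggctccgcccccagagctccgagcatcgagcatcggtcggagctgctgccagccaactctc
Cnn2: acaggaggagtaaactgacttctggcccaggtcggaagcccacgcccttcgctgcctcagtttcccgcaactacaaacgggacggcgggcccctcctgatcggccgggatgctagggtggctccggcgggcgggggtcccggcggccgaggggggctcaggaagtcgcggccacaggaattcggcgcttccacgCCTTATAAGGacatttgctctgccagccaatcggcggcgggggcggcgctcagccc

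Genes of the actin cytoskeleton and of YAP and TEAD, transcription factors that respond to stretch and stiff matrix, were higher together. The cytoskeleton list had 23 of 36 members higher and none lower, with the GTPase Rhoj (10.35 against 5.58), the focal adhesion proteins Tgfb1i1 and Parva (higher by 3.42 and 3.12) and lamin A (Lmna, 9.31 against 6.91). The YAP and TEAD list had 12 of 19 passing members higher and none lower (median 1.47). Its target Ccn1 was 12.16 against 9.82, Ccn2 was higher by 1.69, the cofactor Vgll3 was higher by 3.15, and Crim1 was 10.95 against 6.24. The coactivator Yap1 itself was level, with 6.80 in the neonatal and 6.78 in the iPS library. The gene of the coactivator was thus level while 12 genes of the list were higher.

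The letters GGAATG, which TEAD factors bind, were in the windows of 11 of 17 genes of the YAP and TEAD list (61.9% of 21 windows), against 12.6% of all windows, 36.8% of smooth muscle windows and 7.14% of core pluripotency windows. The list was drawn from known target genes, so this share describes the choice of members. Matches occurred in genes with large differences and in level ones such as Yap1 and Ajuba (-0.01). The promoters of Ankrd1 (chr19:36119845-36120094, minus strand), with a pair of matches, of Ccn1 (chr3:145649986-145650235, minus strand), of Axl (chr7:25788734-25788983, minus strand) and of Crim1 (chr17:78199998-78200247, plus strand) are shown as those of the list's largest or best known members, with GGAATG or its reverse complement in capitals.
Ankrd1: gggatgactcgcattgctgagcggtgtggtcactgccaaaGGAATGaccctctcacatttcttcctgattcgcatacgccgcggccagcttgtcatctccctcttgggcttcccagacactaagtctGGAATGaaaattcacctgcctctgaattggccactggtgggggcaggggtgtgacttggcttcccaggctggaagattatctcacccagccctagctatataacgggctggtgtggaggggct
Ccn1: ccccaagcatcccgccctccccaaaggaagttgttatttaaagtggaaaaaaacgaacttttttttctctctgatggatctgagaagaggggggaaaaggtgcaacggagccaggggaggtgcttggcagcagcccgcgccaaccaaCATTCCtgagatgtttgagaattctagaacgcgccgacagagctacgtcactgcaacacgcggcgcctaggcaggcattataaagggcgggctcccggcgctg
Axl: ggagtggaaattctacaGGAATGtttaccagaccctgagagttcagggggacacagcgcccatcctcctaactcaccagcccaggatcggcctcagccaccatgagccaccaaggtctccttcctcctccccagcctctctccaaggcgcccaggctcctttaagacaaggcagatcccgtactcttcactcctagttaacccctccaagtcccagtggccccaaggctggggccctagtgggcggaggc
Crim1: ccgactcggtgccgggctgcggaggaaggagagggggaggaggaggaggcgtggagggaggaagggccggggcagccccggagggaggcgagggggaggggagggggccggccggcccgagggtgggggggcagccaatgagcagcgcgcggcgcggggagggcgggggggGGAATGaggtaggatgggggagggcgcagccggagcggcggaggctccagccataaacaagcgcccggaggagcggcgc

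Transcription factors of heart and mesenchyme were higher in part. Of 30 passing cardiac factors 14 were at least 2-fold higher and none lower. The cofactor Zfpm2, which partners GATA4, was 7.66 against 4.91, and the homeodomain factors Meis1 and Meis2 were 9.92 against 7.38 and 10.52 against 7.58. Of the 33 measured, 9 were below 0, all by less than 2-fold, among them Nkx2-5 (6.47 against 6.69), Hand1 (5.89 against 6.01) and Irx2 (-0.59). Isl1 and Mef2c were above 0 by less than 2-fold (0.33 and 0.83). Mesenchymal factors had 17 of 27 passing members higher and none lower. Prrx1, a limb and fibroblast homeodomain factor, was 10.05 against 5.77, Osr1 was 9.58 against 6.17 and Foxc2 8.04 against 5.09. The nuclear factor I genes Nfia, Nfib and Nfic, which act in many differentiating cells, were higher by 3.39, 3.20 and 2.07. The fibroblast list, which includes the 10 fibroblast markers above, held 23 of 26 members higher and none lower. Among them were the surface protease Fap (8.27 against 4.36), fibulin 2 (Fbln2, 11.15 against 7.15) and the marker Tcf21 (higher by 3.95). Members of the fibroblast, matrix and mesenchymal lists overlap and are not separate measurements.

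HOX genes, which mark position along the body axis, were mostly dim in both libraries. Of 36 measured 11 passed the filter, none was at least 2-fold higher, and Hoxb1 (5.37 against 7.77) and Hoxb13 (-1.12) were lower. Krüppel-like factors had 6 of 16 passing members lower and 1 higher. Klf5, which supports self-renewal in stem cells, was 7.15 against 10.29 and Klf12 4.72 against 7.29, whereas Klf6 was higher by 1.18 and Klf4 differed by -0.95, below 2-fold. Among SOX factors Sox15 and the neural factor Sox1 were lower (-3.16 and -3.08) and Sox9 and Sox4 were higher (1.66 and 1.45). Immediate early genes had 10 of 28 higher, led by Ier3, Spry1 and Fosl2 (2.31, 2.21 and 2.17), and 2 lower, the ERK target Etv5 (-1.69) and Jund (-1.20), of which the difference of Etv5 was -0.72 with its brightest probe set. GATA factors showed a graded pattern, with Gata4 and Gata6 higher by 2.23 and 2.12, Gata5 by 1.24, and Gata2 and Gata3 differing by 0.96 and 0.15.

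Vessel, epicardial and immune genes gave partial patterns. Of 24 passing endothelial genes 10 were higher and 3 lower, beside 13.0% and 11.2% of all genes. Esm1 had the largest difference of the list (11.31 against 4.38), followed by Selp (higher by 4.98). Fli1, an ETS factor of endothelium and blood, was higher by 3.83, Cd93 was 8.42 against 5.24 and VE-cadherin (Cdh5) 7.62 against 6.20. Pecam1 was 6.38 against 8.58, but it is also in the list of pluripotent surface genes. The other lower members were Mmrn2 (-1.52) and Egfl7 (-1.05), and von Willebrand factor (Vwf) was 4.75 against 5.42, below 2-fold. Members of the endothelial list thus did not all share a direction. Epicardial genes had 11 of 19 higher and none lower. Sema3d was 8.91 against 4.39, Upk1b 7.60 against 4.75 and Upk3b 8.05 against 6.35. Members less than 2-fold apart included Wt1 (0.45) and Aldh1a2 (0.84) above 0, and Bnc2 (-0.63) and Rspo1 (-0.82) below 0. Macrophage and leukocyte genes passed in 16 of 26 cases with 4 higher and 2 lower, the largest being Lyz2 (5.98 against 4.29). Adipocyte genes had 4 of 13 higher, among them Pparg, the master factor of fat cells (8.51 against 4.51), while adiponectin (Adipoq) and leptin (Lep) were below the table median in both libraries. Of 13 passing neural genes 5 were lower and 1 was higher, the intermediate filament nestin (Nes, 8.67 against 6.80). The lower ones included Erbb3 (5.08 against 7.83) and, named elsewhere, Stmn2 and Sox1.

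Signalling ligands and receptors are given by pathway. In the TGF-beta superfamily 8 of 20 passing ligands were higher and 5 lower, and each of those 13 except Gdf11 was at least 4-fold apart. The higher ligands included activin A (Inhba, 10.25 against 5.94), Tgfb3 (9.27 against 5.09), Tgfb2 (9.12 against 5.82) and Gdf6 (8.38 against 4.18), and Bmp7 was lower (5.48 against 7.53). Bmp4 (-0.94) and Inhbb (-0.52) were below 0 by less than 2-fold, and the superfamily thus had ligands on both sides. Among receptors, SMADs and antagonists 14 of 31 were higher and 4 lower. The type 2 receptor Tgfbr2 was higher by 2.14 and the BMP target genes Id2, Id3 and Id1 by 2.99, 2.36 and 2.03, whereas the activin receptors Acvr2b and Acvr1b differed by -1.44 and -1.12.

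Growth factor pathways of mesenchyme and vessels were next. Of 25 passing PDGF, VEGF, HGF and angiopoietin pathway genes 15 were higher and 2 lower. Pdgfra was 10.78 against 7.13, Pdgfrb was higher by 4.03, the TAM receptor Axl 11.09 against 7.18 and neuropilin 1 (Nrp1) 9.40 against 5.57, whereas the endothelial receptors Kdr and Tek differed by 0.11 and -0.24 and the TAM receptor Tyro3 by -0.82. Of the ligands, Pdgfd and Vegfd were higher by 3.32 and 3.13, while Gas6, the ligand of Axl, was lower (-1.25). Ligand and receptor of the Axl pair were thus on opposite sides. In the ERBB family Egfr was 10.38 against 6.22, its ligands Ereg and Hbegf were higher by 3.04 and 1.83, Nrg1 was 8.04 against 6.56, and Erbb4, the neuregulin receptor of heart muscle, was below the table median in both libraries.

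Wnt pathway genes passed in 41 of 54 cases, with 10 higher and 6 lower. The secreted antagonist Frzb was 9.84 against 4.98, and the receptors Fzd1 and Fzd4 were higher by 2.53 and 2.04, while the receptor Lgr4 (-2.28) and the stem cell repressor Tcf7l1 (-1.25) were lower. The FGF list had 2 of 19 higher, Fgf2 (7.55 against 4.93) and Fgfr2, and 2 lower, Fgf4 and the secreted FGF carrier Fgfbp1 (4.21 against 7.60). Both lists held genes on both sides of 0, as did all genes, of which 13.0% were higher and 11.2% lower. In the Notch list Jag1 and Hey2 were higher by 2.08 and 2.22, and Notch3 and Jag2 lower (-1.40 and -1.64). The insulin-like growth factor genes had 8 of 14 higher and 1 lower: Igfbp7 was 12.71 against 8.12 and Igfbp2 5.74 against 9.97.

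Of 17 passing retinoic acid genes 6 were higher and 3 lower. The reductase Dhrs3 (10.51 against 7.42), the receptor Rarb (8.63 against 5.38) and the breakdown enzymes Cyp26b1 and Cyp26a1 (higher by 2.29 and 2.28) were higher, and the binding proteins Crabp1 and Crabp2 were lower (-2.53 and -2.18). The other receptors Rara, Rarg and Rxra differed by -0.37, -0.49 and 0.07, below 2-fold. Guidance molecules had 17 of 39 higher and 4 lower, with Ntn4 (8.43 against 4.62) and Slit2 (9.07 against 5.74) at the top and Epha4 at the bottom (-2.06). Among vasoactive and prostaglandin genes 4 of 17 were higher, including Ptgs2, the inducible cyclooxygenase (10.91 against 7.10), and prostacyclin synthase (Ptgis, higher by 2.37), and the angiotensin receptors Agtr1a and Agtr2 were below the table median in both libraries. In the interleukin 6 family the receptor Osmr was 9.93 against 5.50 and the feedback gene Socs3 5.74 against 7.30.

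Innate immune genes leaned to the neonatal library. Interferon response and antigen presentation genes had 9 of 25 passing members higher and none lower. Beta-2 microglobulin (B2m), the shared chain of class I antigen presentation, was 12.53 against 9.07, and the RNA sensor Ifih1 was 7.81 against 4.77. Of 22 passing chemokine genes 9 were higher and none lower, led by Cxcl12 (11.18 against 6.07) and Ccl17 (6.81 against 4.25). The shared class I chain was thus higher, whereas the class II gene H2-Ab1 was 5.24 against 6.06. Lysosomal genes had 10 of 31 higher and 2 lower, the collagen-degrading cathepsin Ctsk (8.04 against 5.15) and the acid lipase Lipa (10.06 against 7.48) being the highest by difference.

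Membrane scaffold families were among the highest. Caveolae genes had 6 of 9 passing members higher: besides Cavin2, Ehd2 was 10.80 against 6.31, Cavin3 was higher by 3.37 and Cav1 by 2.05. Annexins, calcium-dependent membrane binders, had 6 of 9 higher (family median 2.08), with Anxa3 (11.38 against 8.11) and Anxa1 (11.85 against 8.74), and 1 lower, Anxa8 (-1.16). Lgals is the symbol stem of the galectins, which bind sugars on matrix and cell surface. Genes with this stem had 5 of 6 higher and the highest median of the 320 symbol families (2.15). They included the galectin Lgals1 (13.07 against 10.84) and Lgals3bp (2.53), a galectin-binding protein that is not itself a galectin. Each of these families also held members that were not higher. CREB family factors had a median of 1.55 from 4 higher of 6, the collagen secretion regulator Creb3l1 being 9.70 against 6.51 and Creb1 differing by 0.37. The mechanically gated channel Piezo2 was 10.18 against 4.88, and the smooth muscle potassium channel subunit Kcnmb1 was 8.31 against 5.22, but its pore partner Kcnma1 was 3.95 against 5.64.

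Genes of DNA replication and repair that were 2-fold apart were all lower, mostly by small amounts, beside 11.2% of all genes that were lower. Of 39 DNA replication genes 12 were lower by 2-fold or more and none higher (median -0.75). The licensing factor Cdt1 was 8.03 against 10.20, Orc1 6.50 against 8.10 and the helicase subunits Mcm2 and Mcm5 differed by -1.49 and -1.49. The Mcm family had 6 of 10 members lower. DNA repair genes had 12 of 24 lower and none higher (median -1.05), with Msh6, the mismatch sensor, at 7.52 against 10.45, Parp1 at 8.92 against 11.03 and Brca2 at 6.98 against 8.75. Mitosis genes had 3 of 31 lower (median -0.39), a share below the 11.2% of all genes, and Mki67 differed by -0.17. The medians of the replication and repair lists were thus further from 0 than that of the mitosis list, a difference that was not tested. Ribosome biogenesis genes had 1 of 31 lower but a median of -0.66. The medians of these 4 lists were also below 0 after the shift to equal housekeeping medians.

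The E2F letters TTTCCCGC were in the windows of 3 of 32 replication genes (7.89% of 38 windows) and in 0.895% of all windows. Members of the list were picked by their function, so this share describes the choice of members and was not tested. The match in Gins3 is not printed, since its difference was -0.56, below 2-fold. Mcm7, a helicase subunit, was 9.05 in the neonatal and 10.24 in the iPS library, and the loader Cdc6 was 7.67 and 8.83. Their promoters at chr5:138171884-138172133 (minus strand) and chr11:98907901-98908150 (plus strand) are shown with the match on either strand in capitals, since these are the replication genes with a match that were at least 2-fold lower.
Mcm7: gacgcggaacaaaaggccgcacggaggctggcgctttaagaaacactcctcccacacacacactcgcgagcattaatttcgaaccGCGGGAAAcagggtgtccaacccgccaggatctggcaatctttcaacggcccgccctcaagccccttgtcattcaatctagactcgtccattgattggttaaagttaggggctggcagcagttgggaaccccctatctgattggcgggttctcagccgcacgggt
Cdc6: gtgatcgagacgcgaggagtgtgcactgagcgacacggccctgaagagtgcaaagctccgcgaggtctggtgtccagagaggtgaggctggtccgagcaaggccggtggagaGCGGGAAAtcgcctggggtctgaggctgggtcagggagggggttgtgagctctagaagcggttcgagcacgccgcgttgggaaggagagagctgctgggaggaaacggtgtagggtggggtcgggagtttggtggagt

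Cell cycle regulators differed in both directions. Of 32 genes 8 were higher and 4 lower. The D-type cyclins Ccnd2 (11.08 against 7.56) and Ccnd1 (10.25 against 8.99) and their kinase Cdk6 (9.52 against 6.98) were higher, whereas cyclin E1 (Ccne1), which drives entry into replication, was 7.82 against 9.54. The inhibitors Cdkn2c, Cdkn1c and Cdkn2b were higher by 2.68, 1.85 and 1.19. Activators and inhibitors of the G1 phase were thus both among the higher genes. Telomere genes had 4 of 13 lower and none higher, 2 Zscan4 copies together with Terf1 (8.73 against 10.52) and Rif1 (8.12 against 10.04), and the telomerase RNA Terc was 7.08 against 10.39. Imprinted genes, expressed from 1 parental copy, were even, with 8 higher and 8 lower of 31: Grb10 and Cdkn1c were higher by 3.08 and 1.85, and Mest (8.14 against 11.01) and Peg10 (7.46 against 9.96) were lower.

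Metabolic genes differed by pathway. Cholesterol and lipid synthesis genes had 11 of 25 lower and 1 higher. The synthase Hmgcs1 was 9.26 against 10.89 and the reductase Dhcr7 7.10 against 8.84, while the exporter Abca1 was higher (9.29 against 7.55). Synthesis and export genes thus lay on opposite sides. Serine, one-carbon and amino acid genes had 9 of 27 lower, with the glycine decarboxylase Gldc (6.19 against 9.54) and the arginine transporter Slc7a3 (5.18 against 9.08), and 1 higher, Mthfd2l (2.07). Glycolysis genes had 9 of 26 lower, among them the pyruvate dehydrogenase kinase Pdk1 (4.13 against 6.52) and Pfkp (8.06 against 9.87), and Pfkfb3 was higher by 1.86. Respiratory chain genes were close to level, with 1 of 50 lower, Cox7a1. The medians of the glycolysis list (-0.30), the respiratory list (-0.27) and the cytosolic ribosomal protein list (-0.31) were just above 0 after the housekeeping shift. Fatty acid genes had 6 of 28 higher and none lower, including Cd36 (6.28 against 3.65) and Acsl5 (9.11 against 6.52).

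Small RNA genes were read through their precursors, so the mature molecules were not measured. Of 478 miRNA precursors 148 passed the filter, 12 were at least 2-fold higher and 13 lower, beside 13.0% and 11.2% of all genes. The precursors named next are members of lists chosen for their clusters. Mir290a, from the cluster that embryonic stem cells express most, was 3.25 in the neonatal and 9.28 in the iPS library. Mir18b, from the X-linked cluster related to miR-17, was 2.54 against 6.71, and Mir20a and Mir19a of the miR-17 cluster were 3.99 against 5.37 and 4.43 against 5.43. On the other side, Mirlet7c-1 was 5.38 against 2.83 and its neighbour Mir99a 5.78 against 4.02, with Mir27a at 7.66 against 6.41. These precursors thus lie in few clusters, and the value of a cluster is not known from 1 member. Of the let-7 list, 9 of 12 measured precursors, and all measured precursors of the Mir302 cluster, were below the table median in both libraries. Mature sequences of these 7 precursors, from RefSeq on GRCm38.p6, are shown because the seed (bases 2 to 8, in capitals) is the part of a miRNA that pairs with its targets.
mmu-miR-290a-5p: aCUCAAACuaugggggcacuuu
mmu-miR-290a-3p: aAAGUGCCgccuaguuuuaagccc
mmu-miR-20a-5p: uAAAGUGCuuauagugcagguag
mmu-miR-18b-5p: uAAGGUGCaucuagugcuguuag
mmu-miR-19a-3p: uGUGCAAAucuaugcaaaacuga
mmu-let-7c-5p: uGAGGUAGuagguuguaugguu
mmu-miR-99a-5p: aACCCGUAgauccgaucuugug
mmu-miR-27a-3p: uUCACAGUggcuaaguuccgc
The 3p arm of miR-290a and the 5p arm of miR-20a share the run AAGUGC, offset by 1 base, and the seed of miR-20a-5p is carried by 7 mature entries, among them miR-17-5p and miR-93-5p. The let-7c-5p seed is carried by 13 entries, and no pair of the printed arms shares a whole seed.

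Small nucleolar RNAs, which guide the modification of ribosomal RNA, passed in 76 cases, of which 16 were lower by 2-fold or more and 2 higher (median -0.61). Snord13 was 7.72 against 10.78 and Snora75 7.92 against 9.87. Long non-coding RNAs had 41 higher and 53 lower of 462, and protein-coding genes 1690 higher and 1412 lower of 12658. Over genes of all kinds 13.0% were higher and 11.2% lower.

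Neighbouring genes on the chromosomes were in places higher or lower together. The order held only named genes that passed the filter, placed by RefSeq position, so genes between them were skipped. In it, 380 of 13537 adjacent pairs were both at least 2-fold higher and 267 both at least 2-fold lower. Over all genes 13.0% were higher and 11.2% lower, so some pairs coincide anyway, and whether these counts exceed that was not tested. Runs of 4 or more genes in 1 direction numbered 15 higher and 12 lower. The longest run, 7 higher genes on chromosome 6, went from Foxp2 (3.42) and Mdfic through Tfec (3.66) and Tes to Cav2, Cav1 and the HGF receptor Met (2.24). On the same chromosome a run of 5 lower genes was made of Apobec1 (-2.30), Gdf3, Dppa3 (-1.68), Nanog and Slc2a3. The glucose transporter gene is thus a neighbour of Nanog in this order. On chromosome 19 Acta2 lay in a run of 6 higher genes with Stambpl1, Fas (1.19), Ch25h (3.44), Lipa and Ifit2 (2.36). Runs of lower genes also covered the clusters of near-identical genes, 5 Zscan4 copies on chromosome 7 and 6 zinc finger genes on chromosome 4 from Rex2 to Zfp984. Histone genes H1f1, H1f2, H2bc1, H2bc3 and H2ac1 formed a lower run on chromosome 13, with H2ac1 at 5.08 against 10.55.

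**Figure D5:**
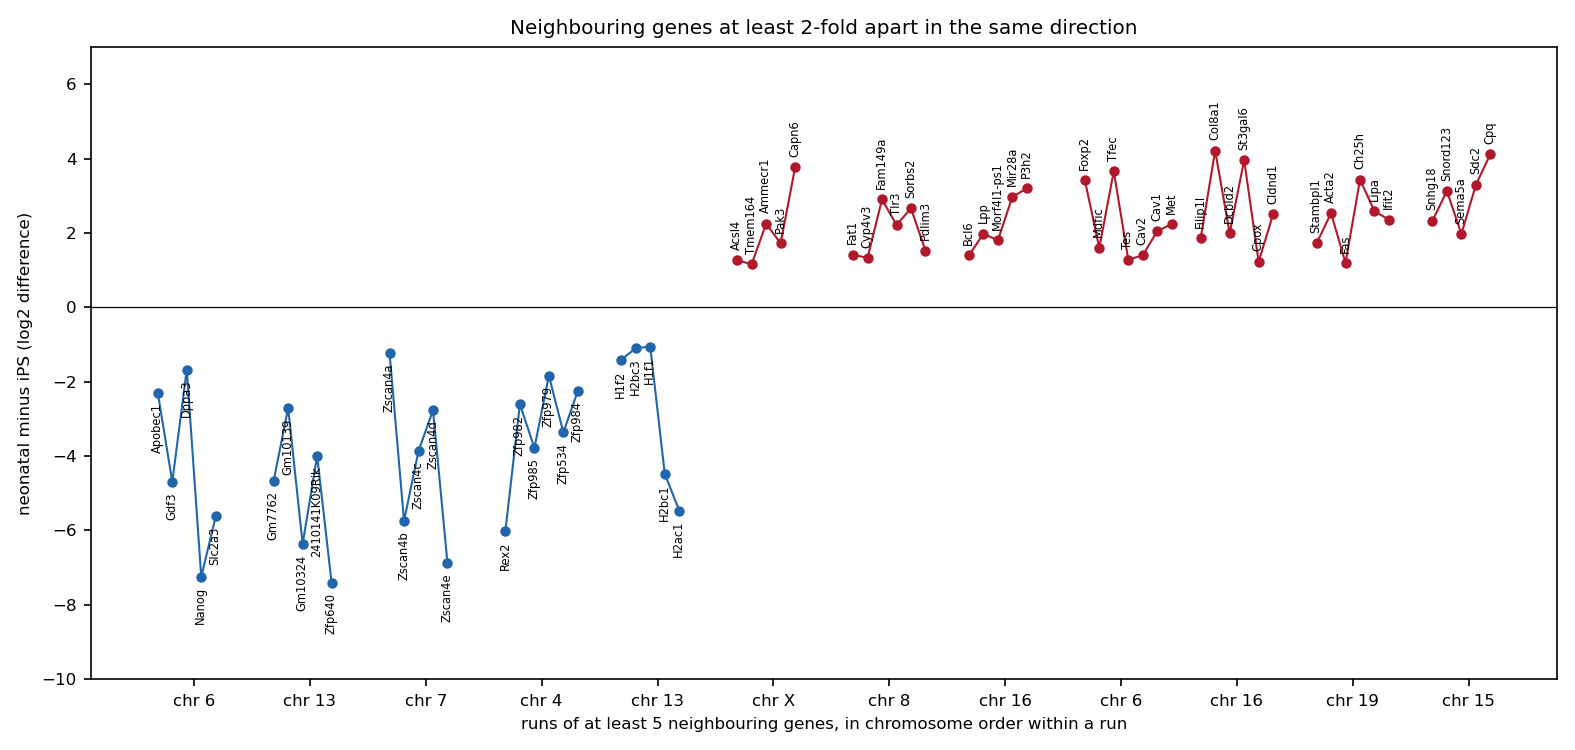
Log2 difference (neonatal minus iPS, vertical) of each gene in the 12 runs of at least 5 neighbouring genes at least 2-fold apart in 1 direction. Neighbours are taken among named genes that passed the filter, in chromosome order within a run. Red runs are higher and blue runs lower in the neonatal library, and the run with Nanog (-7.25) and Slc2a3 is on the left.

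By chromosome, the share of genes at least 2-fold higher ran from 7.81% of 666 genes on chromosome 17 to 18.3% of 645 genes on chromosome 3 among the autosomes. The X chromosome had 15.5% higher and 18.3% lower of 458 genes, the latter beside 11.2% over all genes.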

How the data were processed

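Total RNA (300 ng a library, per the labels' protocols) from 6 libraries was measured on 1 array each. The authors deposited log2 values of 41345 probe sets, made by RMA per the submitters' processing notes; the RMA version and settings were not given in the sources used here. Gene names came from the platform annotation and RefSeq: 23521 probe sets had 1 symbol, 1814 had several and 16010 had none, and only the first kind was used, as the mean per gene. Differences were computed in Python 3.11.15 with numpy 2.4.6 and pandas 2.3.3, and cyclic loess in R 4.3.3 with limma 3.58.1. Counting was checked on simulated data. Genes passed at a higher value of at least 5.20 (the table median), and counts used 2-fold and 4-fold, with no test because each group has 1 library, so precision is limited by the number of arrays.

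The members and 87 gene lists were chosen with earlier results of these data known. Named are the 30 largest differences each way, the up to 6 members of each list furthest apart each way, list members of the pluripotent, muscle, heart cell and matrix themes, the 12 highest and 12 lowest symbol families, and listed small RNA precursors. Genes of neighbour runs, small nucleolar RNAs, histone genes and members named as level or dim in other lists were chosen after their values were seen. The 7 alternatives were no filter, a filter at the 75th percentile, the brightest probe set, genes with 1 probe set, cyclic loess, a shift to equal housekeeping medians, and that shift relative to all genes.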

Additional observations from a re-analysis of the deposited data

Results flagged for a closer look

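Probe sets without a gene name in the annotation used here lie outside the gene comparison and also differed between the libraries. Of 6955 that passed the same filter, 337 were higher in the neonatal library by 4-fold or more and 118 lower by as much, and at 2-fold the counts were 1211 (17.4%) and 559 (8.04%). Their differences ran from -7.58 to 7.00 with a median of 0.11. No second library of either group exists to set against these differences.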

How the results depend on the processing

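No paired analysis was possible because the labels carry no replicate numbers and each group has 1 library. The count of higher genes (1759) lay between 1414 and 2564 over the 7 alternatives, within 1.5 times throughout. The count of lower genes (1524) was 939 after the shift to equal housekeeping medians, which subtracted the housekeeping median difference of -0.32 from all differences, and within 1.5 times under the other 6. Measured relative to the median of all genes, that shift gave 1925 higher and 1348 lower genes. None of the 731 genes considered turned direction under any alternative that could be computed for it. This was largely fixed in advance, since each was chosen as at least 2-fold apart and a shift of that size cannot turn such a gene. Of them, 686 had 1 probe set, so the probe set alternatives could not change their values. The shift by construction turns the sign of genes named as level that lie just below 0, such as Mki67. Of the 731 genes, 676 were still at least 2-fold apart in the same direction after the shift, 729 under cyclic loess and 729 with the brightest probe set, which moved 15 of them by more than 1.5-fold. Among these the difference of Etv5 was -0.72. For fibrillar collagens the list median of 1.61 was 2.95 with the brightest probe sets and 0.13 with genes of 1 probe set only, and for small leucine-rich proteoglycans 1.95 was 2.62 with the brightest probe sets. Of 85 list medians with members left under the filter at the 75th percentile, 34 moved by more than 1.5-fold, and without a filter 7 of 87 did. With 1 array a side, sampling of animals or cultures is not measured, and dim genes near the table median carry the least information.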
